A study of Mus musculus with 72 samples.

Results

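The antibody mP2D10 binds the cytokine TWEAK, and it was given alone to 14 mice with acute colitis whose colon transcriptomes were compared with those of 8 colitic mice left untreated. The 22 arrays were taken by their titles out of the 72 of the series, and each array was 1 mouse. All mice were wild type Balb/c animals; their age and sex are not known from the labels. To induce colitis, trinitrobenzene sulfonic acid (TNBS), which modifies proteins of the mucosa, was instilled into the rectum in ethanol and buffer at 70 µg per g of body weight, and total RNA came from a piece of the rolled, frozen colon on day 4. Mice of the anti-TWEAK group received 10 mg/kg of mP2D10 into the abdominal cavity 1 hour before TNBS, whereas untreated mice received TNBS and no antibody of any kind. Both groups were present in each of the experiments that the labels number 7 and 10, with 4 untreated and 8 anti-TWEAK mice in experiment 7, and 4 and 6 in experiment 10. A further 15 colitic mice (8 and 7) had received 10 mg/kg of a control IgG2a antibody against human CD20, and 8 naive mice of experiment 10 had received neither TNBS nor treatment. The remaining arrays came from colitic mice given the agent labelled TNFR-Ig at 0.3 mg/kg, alone or together with 10 mg/kg of anti-TWEAK. They enter the fit of all 72 arrays and are not compared here.

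TWEAK is a ligand of the TNF family, encoded by Tnfsf12, and it signals through the receptor Fn14, encoded by Tnfrsf12a, which many epithelial and stromal cells display after injury. Fn14 recruits TRAF adaptors and activates the NF-kB transcription factors, both the canonical pathway (Rela) and the non-canonical one (Relb with Nfkb2, through the kinase Map3k14). TNBS colitis is driven by infiltrating neutrophils, macrophages and T cells, and interferon gamma from T cells and innate lymphocytes induces a characteristic set of GTPases, antigen-processing genes and Ido1 in the mucosa.

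Values are the deposited log2 levels, whose lower limit is a floor of 2.08, and changes are log2 differences of anti-TWEAK minus untreated with their standard error (SE), fitted in limma with the experiment as a term. A gene was called when its p-value, adjusted by the method of Benjamini and Hochberg over all 12534 genes tested, was below 0.05. Markers of colon epithelium (Vil1, Cdx2, Krt20, Muc2, Slc26a3 and Car1) were high on all 22 arrays, with the lowest value at 13.43. Replicates 2 and 3 of the untreated mice of experiment 10 stood apart: 36.1% and 36.0% of their values lay within 0.1 of the floor, against 37.4% to 37.8% on the other 20 arrays, and 41 and 66 genes that were at the floor on over 90% of the other arrays were above 4 on them, against at most 10 genes on each of the 20. Results are given with these 2 arrays and, beside that, without them. Without them, untreated replicates 1 and 5 alone remain in experiment 10. A threshold missed there does not show that a change is absent. The 3 prime minus 5 prime difference of Actb, which grows as RNA is degraded, ran from 1.03 to 1.11 in untreated and from 1.13 to 1.23 in anti-TWEAK mice of experiment 10, without overlap, and it overlapped in experiment 7 (1.00 to 1.16 and 0.93 to 1.12). The mean of 10 exocrine pancreas genes had a median of 10.1 in untreated and 4.94 in anti-TWEAK mice of experiment 7, and of 6.27 and 4.43 in experiment 10. With the Actb difference as a covariate 564 genes were called, and with the pancreas mean 574, against 765 without either. Named genes were refitted with each covariate as well, and their single values are not listed here. Whether either accounts for a single change was not tested. The number of arrays limits the precision of every value, and in RNA from whole tissue fewer cells of a type and less RNA per cell cannot be told apart.

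Of the 10 largest rises under anti-TWEAK, 6 were genes that interferon gamma induces (Ido1, Iigp1, Gbp6, Gbp8, Gbp2 and Igtp), and the largest falls were those of the inflammatory genes Ptx3, Prok2, Tnfsf11 and Ccl7. In all 765 genes were called, 6.10% of those tested, 479 higher (3.82%) and 286 lower (2.28%), while 2875 genes had an unadjusted p under 0.05. Changes were small for most: the median size among called genes was 0.30, and among those that changed by 1 log2 unit or more were 11 higher and 44 lower genes. The median change over all 12534 genes was 0.02. Without the 2 arrays that stood apart 560 genes were called (4.47%), 209 higher (1.67%) and 351 lower (2.80%), and 362 of them were among the 765 (182 higher and 180 lower); every one of the 765 kept its sign. Most called genes were higher with these 2 arrays and most were lower without them. Leaving out single arrays moved the count between 322 and 1584. It was 322 without untreated replicate 2 of experiment 10, 460 without untreated replicate 5 of experiment 10, 429 without untreated replicate 2 of experiment 7 and 1584 without untreated replicate 5 of experiment 7. Without replicate 3 or replicate 8 of the anti-TWEAK mice of experiment 10 it was 498 or 461. A fit of only the groups compared called 235 genes, 174 higher and 61 lower.

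Of 18 tested genes that interferon gamma induces, 12 rose and 0 fell, with a median change of 0.96. Without the 2 arrays 2 rose, Gbp6 and Irf1, and the median was 0.76. Over all genes 3.82% were called higher, and 1.67% without the 2 arrays. The promoters of 4 of the 12 are printed to show the sequence elements through which interferons act on such genes: the gamma-activated site (GAS, TTCNNNGAA) and the interferon-stimulated response element (ISRE, GAAANNGAAA), which interferon regulatory factors bind. Capitals mark each match, on either strand, in the 250 bases before and the 50 bases after the start of the gene, as RefSeq gives it in build GRCm38.p6.
Igtp: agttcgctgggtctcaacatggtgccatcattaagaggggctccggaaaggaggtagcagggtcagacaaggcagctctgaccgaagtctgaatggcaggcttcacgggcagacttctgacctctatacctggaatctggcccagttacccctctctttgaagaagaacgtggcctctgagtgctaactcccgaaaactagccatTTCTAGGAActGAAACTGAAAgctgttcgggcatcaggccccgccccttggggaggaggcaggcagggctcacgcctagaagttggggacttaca
Irgm2: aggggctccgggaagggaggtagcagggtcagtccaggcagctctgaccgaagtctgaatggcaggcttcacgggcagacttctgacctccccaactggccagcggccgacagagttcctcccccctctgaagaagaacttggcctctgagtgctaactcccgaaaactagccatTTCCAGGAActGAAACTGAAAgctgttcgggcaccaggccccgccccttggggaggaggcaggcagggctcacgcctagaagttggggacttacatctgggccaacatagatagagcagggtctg
Gbp2: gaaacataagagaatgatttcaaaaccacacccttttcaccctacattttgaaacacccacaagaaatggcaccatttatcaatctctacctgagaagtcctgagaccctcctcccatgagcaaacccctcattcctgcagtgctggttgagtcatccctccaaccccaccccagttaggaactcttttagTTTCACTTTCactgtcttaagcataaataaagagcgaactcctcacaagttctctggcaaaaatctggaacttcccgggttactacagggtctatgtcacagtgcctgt
Irf1: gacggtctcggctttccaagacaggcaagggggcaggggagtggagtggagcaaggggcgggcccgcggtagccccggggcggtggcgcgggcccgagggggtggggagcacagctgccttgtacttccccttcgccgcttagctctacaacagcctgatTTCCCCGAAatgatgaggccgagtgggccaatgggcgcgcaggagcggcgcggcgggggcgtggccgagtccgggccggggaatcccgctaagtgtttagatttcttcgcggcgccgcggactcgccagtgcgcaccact

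The 4 windows lie on the plus strand, at chr11:58199306-58199605 (Igtp), chr11:58214727-58215026 (Irgm2), chr3:142620413-142620712 (Gbp2) and chr11:53769764-53770063 (Irf1). Igtp and Irgm2, which encode GTPases that act on pathogen-containing vacuoles, carried a GAS and an ISRE side by side, at 45 and 34 bases before the start in Igtp and at 75 and 64 in Irgm2; the genes are neighbouring paralogs, and their windows share most letters around these elements. Gbp2, a guanylate-binding protein, held an ISRE, read on the other strand as TTTCNNTTTC, at 59 bases before its start. Irf1, a transcription factor that itself acts on such elements, held a GAS at 90 bases before the first of its 2 listed starts. The table held a promoter for 8 of the 12 genes, with 10 windows of this length, of which 4 held a GAS and 6 an ISRE. Of all 32851 windows of that length in the table, 8.30% held a GAS and 3.44% an ISRE, GAS and ISRE being searched as spelled out above on both strands, with no letters shared by a GAS and an ISRE in Igtp and Irgm2. An NF-kB motif (GGGNNTTTCC) was in 0 of the 10 windows and in 1.63% of all. Such a match describes the sequence only; binding was not measured.

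Ido1, the enzyme that degrades tryptophan, had levels of 10.89, 10.60, 7.51 and 11.44 in the untreated mice of experiment 7 and 10.43 to 12.69 (median 11.20) in those given anti-TWEAK. In experiment 10 the untreated mice had 12.50, 9.99, 9.07 and 7.97, and anti-TWEAK mice 10.78 to 12.99 (median 11.57). In experiment 7, 1 untreated mouse lay far below every treated mouse and the other 3 were within the treated range, and in experiment 10, 3 untreated mice lay below every treated mouse and 1 was among them. Ido1 rose by 1.51 ± 0.46 (2.85-fold, adjusted p = 0.0375), and without the 2 arrays it was at 1.35 ± 0.51 (adjusted p = 0.111). Naive mice had a median of 10.36.

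Gbp6, another guanylate-binding protein, was measured at 6.96, 8.30, 6.74 and 7.89 in untreated mice of experiment 7 and at 7.39 to 9.54 (median 8.64) under anti-TWEAK. In experiment 10 untreated mice had 8.78, 7.38, 6.77 and 6.62 and anti-TWEAK mice 8.27 to 9.27 (median 8.94). In experiment 10 untreated replicate 1 alone reached into the treated range, and in experiment 7, 2 untreated mice did. The gene rose by 1.31 ± 0.30 (2.48-fold, adjusted p = 0.00429), and it passed without the 2 arrays as well (1.16 ± 0.33, adjusted p = 0.0271). Irf1 ran over 10.51, 10.78, 10.51 and 11.46 in untreated and 10.60 to 11.64 (median 11.08) in treated mice of experiment 7, and over 11.59, 10.73, 10.89 and 10.55 and 11.38 to 11.88 (median 11.79) in experiment 10. It rose by 0.53 ± 0.12 (adjusted p = 0.00424; without the 2 arrays 0.47 ± 0.13, adjusted p = 0.0264). Untreated replicate 1 was again the one mouse of experiment 10 within the treated range, and in experiment 7 the groups overlapped.

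The other called members were the immunity-related GTPases Iigp1 (1.33 ± 0.42), Igtp (1.08 ± 0.32), Irgm2 (0.73 ± 0.19) and Irgm1 (0.55 ± 0.16), the guanylate-binding proteins Gbp8 (1.27 ± 0.30), Gbp2 (1.13 ± 0.35), Gbp3 (0.99 ± 0.29) and Gbp7 (0.57 ± 0.14), and the peptide transporter Tap1 (0.99 ± 0.27). Gbp3, Gbp7, Irgm1, Irgm2 and Tap1 were named after their values were seen. Among the 6 members that did not pass, Cxcl9, a T cell attracting chemokine, had the largest value (1.82 ± 0.60, adjusted p = 0.0523), and it too was chosen after its values were seen. Guanylate-binding proteins form a family of near copies, and their probe sets may share signal. By experiment the list's median was 0.62 in experiment 7 and 1.32 in experiment 10.

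Of 20 genes that type I interferon induces, 5 rose (all genes: 3.82%) and 0 fell, with a median of 0.61. Without the 2 arrays 0 passed (median 0.62). They were the interferon-induced Ifit2 (0.81 ± 0.26), the RNA sensors Dhx58 (0.77 ± 0.24), Ddx58 (0.57 ± 0.18) and Ifih1 (0.25 ± 0.077, named after its value was seen), and the signalling factor Stat2 (0.53 ± 0.12). All 18 and all 20 tested members of these lists had a fitted change above 0, as had 58.6% of all genes tested. Irf8, a transcription factor of dendritic cells and macrophages, rose by 0.31 ± 0.084 as the 1 called gene among 12 of antigen presentation and dendritic cells.

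**Figure D1:**
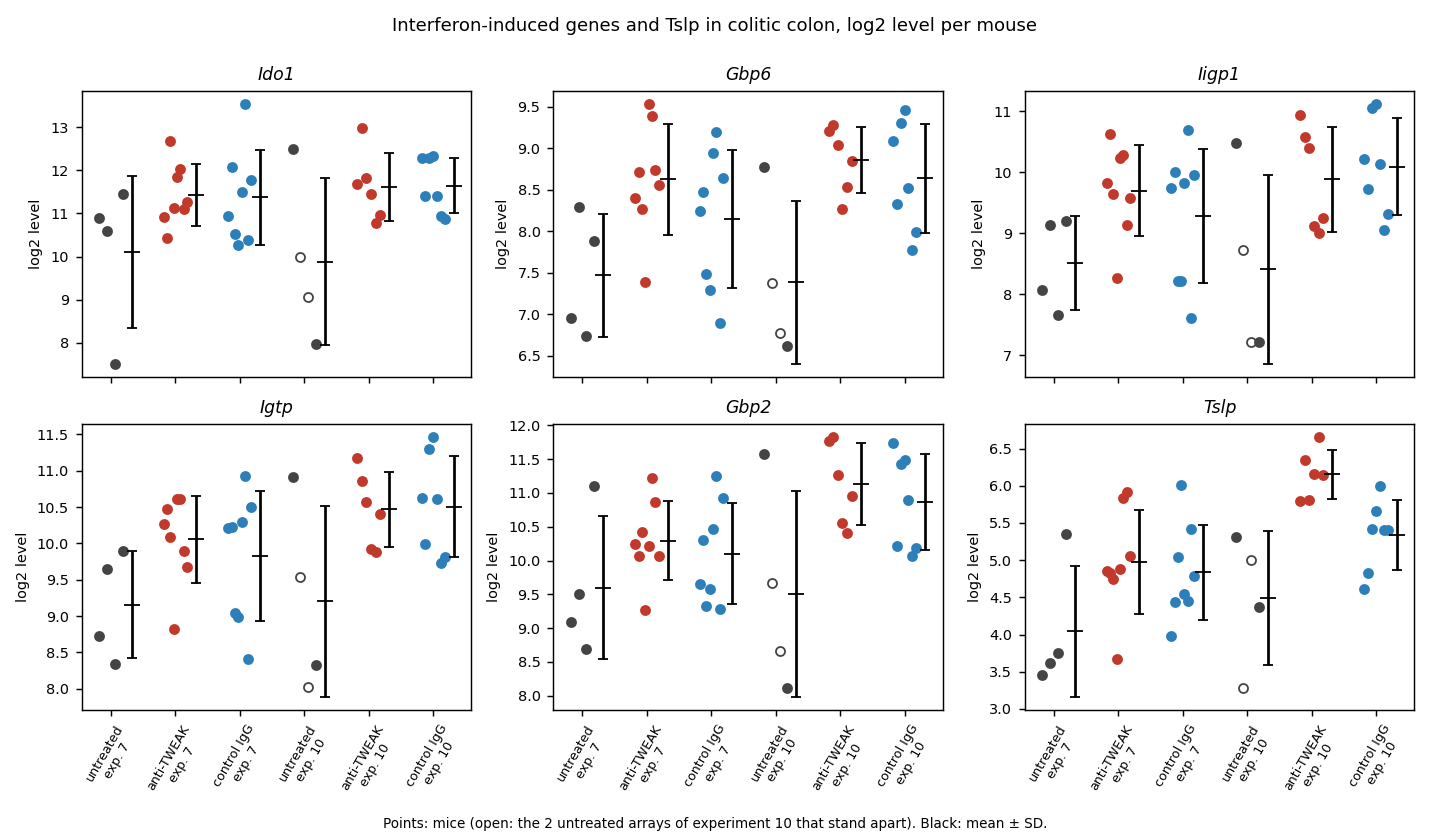
Log2 level (vertical axis) of 5 interferon-induced genes and Tslp in each colitic mouse, for untreated, anti-TWEAK and control IgG mice of experiments 7 and 10; points are mice, open points the 2 untreated arrays that stood apart, and black marks the mean ± SD. In experiment 10 untreated replicate 1 sits at 12.50 for Ido1 and 8.78 for Gbp6, among the treated mice, while the other untreated mice of that experiment lie below all 6 anti-TWEAK mice for both genes.

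Tslp, an epithelial cytokine that acts on dendritic cells and type 2 lymphocytes, was the 1 gene of 26 cytokines and chemokines that rose. Its levels in untreated mice were 3.45, 3.61, 3.75 and 5.35 in experiment 7 and 5.31, 3.28, 5.01 and 4.38 in experiment 10. Under anti-TWEAK they were 3.67 to 5.91 (median 4.87) in experiment 7 and 5.80 to 6.66 (median 6.15) in experiment 10. All 6 treated mice of experiment 10 were above its 4 untreated mice, and in experiment 7 the groups overlapped through untreated replicate 5 and 1 treated mouse. Tslp rose by 1.25 ± 0.27 (2.38-fold, adjusted p = 0.0027), with 1.11 ± 0.29, adjusted p = 0.0158 without the 2 arrays. The median of naive mice was 5.96.

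Beside the interferon genes and Tslp, the 10 largest rises held those of the sulfate transporter Slc13a1 (1.02 ± 0.32, adjusted p = 0.045), the transcription factor Pax8 (1.01 ± 0.22, adjusted p = 0.00303) and Nr1d1, a repressor of the circadian clock (1.01 ± 0.27, adjusted p = 0.0179). Of these Pax8 passed without the 2 arrays (0.77 ± 0.22, adjusted p = 0.0324), while Slc13a1 was at 1.09 ± 0.35 (adjusted p = 0.0571) and Nr1d1 at 0.77 ± 0.29 (adjusted p = 0.113).

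At the other end stood Ptx3, a pattern-recognition protein that myeloid and stromal cells secrete in inflammation. Untreated mice had 9.66, 11.07, 11.70 and 7.80 in experiment 7 and 8.71, 11.19, 9.96 and 10.88 in experiment 10. Anti-TWEAK mice ran from 2.25 to 11.12 (median 9.42) in experiment 7 and from 2.53 to 8.90 (median 4.55) in experiment 10. In experiment 7, 6 of 8 treated mice were within the untreated range and 2 were far below it, and in experiment 10, 1 treated mouse was within it and 5 were below. Ptx3 fell by 3.15 ± 0.94 (8.88-fold, adjusted p = 0.0323) and was at -2.85 ± 1.05 (adjusted p = 0.0996) without the 2 arrays. Naive mice had a median at the floor, 2.08.

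Tnfsf11 encodes RANKL, a TNF family ligand known from bone resorption and lymphoid tissue. It was at 7.43, 9.29, 8.81 and 4.89 in the untreated mice of experiment 7 and at 7.16, 8.03, 6.77 and 9.08 in those of experiment 10. With anti-TWEAK it ran from 3.46 to 8.55 (median 6.52) in experiment 7 and from 3.15 to 4.93 (median 4.47) in experiment 10. All 6 treated mice of experiment 10 lay below all 4 untreated ones, and in experiment 7 the ranges overlapped. Tnfsf11 fell by 2.37 ± 0.55 (adjusted p = 0.0061), also without the 2 arrays (-2.43 ± 0.62, adjusted p = 0.0144).

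Ccl7, a chemokine that attracts monocytes, was at 7.85, 8.47, 10.15 and 6.07 in untreated mice of experiment 7 and 8.82, 8.57, 7.85 and 8.57 in those of experiment 10. Treated mice ran from 3.56 to 9.41 (median 7.75) and from 3.38 to 7.64 (median 4.75). The groups separated in experiment 10 and overlapped in experiment 7. Ccl7 fell by 2.06 ± 0.62 (adjusted p = 0.0353; without the 2 arrays adjusted p = 0.0795). Prok2, a secreted peptide made by neutrophils, was at -2.41 ± 0.77 (adjusted p = 0.0459) and lay within 0.1 of the floor on 4 of the 14 treated arrays, so that its size depends on the floor.

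The next falls were those of receptors and kinases of myeloid and natural killer cells: Sirpb1a (-1.96 ± 0.56), Klra17 (-1.89 ± 0.53), Cd300ld (-1.80 ± 0.50) and the Src family kinase Fgr (-1.56 ± 0.47), and of Inhbb, a subunit of activin (-1.77 ± 0.52), and Slfn1, a gene of immune cells (-1.59 ± 0.49). Of these Cd300ld, Fgr and Slfn1 passed without the 2 arrays (adjusted p = 0.0328, 0.045 and 0.0404). Among called genes chosen after their values were seen, the inhibitory receptor Cd300a fell by 1.11 ± 0.22 (adjusted p = 0.0011), the adaptor Nfam1 by 1.04 ± 0.21 (adjusted p = 0.00124), the macrophage transcription factor Tfec by 0.93 ± 0.18 (adjusted p = 0.00114) and Snai1, a repressor active in mesenchymal cells, by 0.57 ± 0.10 (adjusted p = 0.000315). These 4 passed without the 2 arrays too, with changes of -1.15, -1.31, -0.94 and -0.73. Snai1 ran only from 2.61 to 2.98 in treated mice, where the value 2.83 recurred exactly. Nfam1 likewise recurred at 2.20 on several treated arrays. The size of either change depends on this low recurring level.

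**Figure D2:**
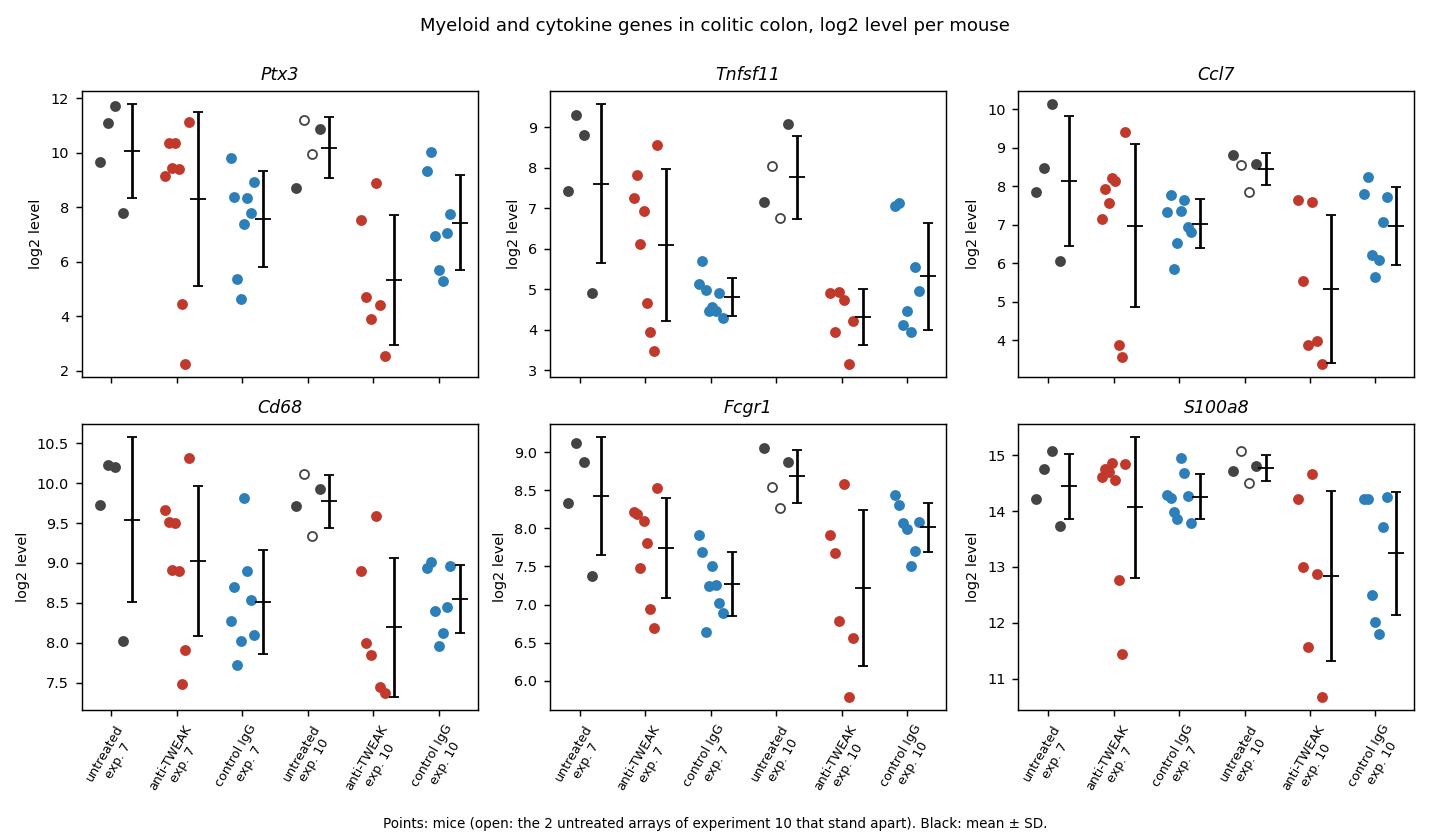
Log2 level (vertical axis) of 6 genes of myeloid cells and cytokines in each colitic mouse, for untreated, anti-TWEAK and control IgG mice of experiments 7 and 10; points are mice, open points the 2 untreated arrays that stood apart, and black marks the mean ± SD. For Ptx3 2 of 8 anti-TWEAK mice of experiment 7 and 5 of 6 of experiment 10 lie below every untreated mouse of their experiment; S100a8 did not pass.

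Of 27 monocyte and macrophage genes 6 fell and 0 rose, with a median of -0.65. Without the 2 arrays 1 fell, the antibody receptor Fcgr1, and the median was -0.56. Over all genes 2.28% were called lower, and 2.80% without the 2 arrays. Cd68, a lysosomal protein of macrophages, was at 9.73, 10.22, 10.20 and 8.02 in untreated mice of experiment 7 and 9.72, 10.12, 9.34 and 9.93 in those of experiment 10. Treated mice ran from 7.49 to 10.31 (median 9.21) and from 7.37 to 9.59 (median 7.93). In experiment 7, 2 treated mice were below every untreated one, in experiment 10, 5 of 6 were, and the other ranges overlapped. Cd68 fell by 0.99 ± 0.30 (adjusted p = 0.031), Itgam, an integrin of myeloid cells, by 1.05 ± 0.32, Fcgr1 by 1.02 ± 0.30, and the scavenger receptor Msr1 by 0.98 ± 0.29. Lyz2 and Tyrobp, a lysozyme and a signalling adaptor of macrophages named after their values were seen, fell by 0.40 ± 0.12 and 0.79 ± 0.22. Adgre1, a surface receptor of macrophages that was also named after its value was seen, was at -0.71 ± 0.23 (adjusted p = 0.0542). Among 15 Fc receptor and complement genes, 2 fell, Fcgr1 and Fcer1g, the common chain of Fc receptors (-0.77 ± 0.25), and 0 rose (median -0.46); without the 2 arrays Fcgr1 alone passed.

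Neutrophil genes had the lowest median of the lists, -1.80 over 14 tested genes, yet 1 passed, Prok2, and without the 2 arrays 0 passed (median -1.49). S100a8, a calprotectin subunit, had 14.22, 14.75, 15.07 and 13.74 in untreated mice of experiment 7 and 14.71, 15.08, 14.50 and 14.80 in those of experiment 10, against 11.45 to 14.86 (median 14.66) and 10.67 to 14.66 (median 12.94) with anti-TWEAK. In experiment 7, 6 of 8 treated mice were within the untreated range and 2 were below it, and in experiment 10, 1 was within and 5 were below. The 2 low mice of experiment 7 were replicates 6 and 7, for Ptx3 and Cd68 too. In experiment 10 the mouse within the range was replicate 6 for all of these genes. Such counts thus describe the same mice and are not separate evidence from each gene. The change of S100a8 was -1.13 ± 0.62 (adjusted p = 0.266). S100a9, Csf3r and Cxcr2 were at -0.78 ± 0.56, -1.49 ± 0.58 and -1.92 ± 0.70, and 0 of them passed; these 4 genes were chosen after their values were seen.

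Beside Tnfsf11 and Ccl7, the falling cytokines were Il33, an alarmin of stromal and epithelial nuclei (-1.03 ± 0.29, adjusted p = 0.0229), and the chemokines Cxcl12 (-0.47 ± 0.10, adjusted p = 0.00315) and Ccl9 (-0.39 ± 0.10, adjusted p = 0.0122), of which Cxcl12 and Ccl9 were named after their values were seen. These 3 and Tnfsf11 also passed without the 2 arrays. A dimmer probe set of Cxcl12 was at -0.55 in experiment 7 and 0.056 in experiment 10. The median of the 26 cytokines and chemokines was -0.60. Il6, Cxcl1 and Il1b were at -2.50 ± 0.87, -1.25 ± 0.66 and -0.58 ± 0.65 (adjusted p = 0.0651, 0.245 and 0.637) and did not pass; they too were named after their values were seen.

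None of the 12 tested ligands, receptors and adaptors of TWEAK and TNF was called across both experiments (median 0.04). By experiment, 0 passed in experiment 7, while 3 were higher and 2 lower in experiment 10, where 21.7% of all genes were called. Without the 2 arrays that stood apart 0 passed in experiment 10. The difference between experiments was called for 2 members, both in the higher direction. Tnfrsf12a, the receptor of the antibody's target, was at 9.25, 9.14, 8.83 and 8.39 in untreated mice of experiment 7 and 9.09, 9.12, 7.91 and 8.95 in those of experiment 10. Anti-TWEAK mice had 8.17 to 9.19 (median 8.86) and 8.07 to 8.76 (median 8.64). The ranges overlapped in both experiments and the change was -0.17 ± 0.22 (adjusted p = 0.689); naive mice had a median of 7.38. The TNF receptors Tnfrsf1a and Tnfrsf1b were at -0.17 ± 0.10 and -0.30 ± 0.13, the adaptor Traf1 at 0.073 ± 0.19, the ubiquitin ligase Birc3 at 0.086 ± 0.069 and the adaptor Tradd at 0.031 ± 0.039. Traf1 differed by experiment. It ran from 5.36 to 5.99 in untreated and from 4.50 to 5.87 in treated mice of experiment 7. In experiment 10 it ran from 5.58 to 6.09 and from 6.28 to 6.57, without overlap. Tnf lay below the level filter, within 0.1 of the floor on 5 of 8 untreated and 7 of 14 anti-TWEAK arrays, and Map3k14 was at the floor on all 22. Tnfsf12 had no probe set of a single gene and is not analysed here.

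Of 15 NF-kB subunits, inhibitors and feedback genes 1 rose, Cyld, a deubiquitinase that restrains the pathway (0.12 ± 0.035, adjusted p = 0.0354; without the 2 arrays adjusted p = 0.0877), and 0 fell. Rela was at -0.061 ± 0.05, Relb at 0.018 ± 0.11, Nfkb2 at 0.015 ± 0.081 and the inhibitor Nfkbia at -0.077 ± 0.067, with adjusted p of 0.493, 0.943, 0.937 and 0.521. Of 32 canonical NF-kB targets, Irf1 rose and the adhesion molecule Vcam1 fell (-0.52 ± 0.15, adjusted p = 0.024), which is 2 of 32 against 6.10% of all genes. Without the 2 arrays 1 rose and 2 fell. The median was -0.38, at -0.01 in experiment 7 and -0.66 in experiment 10.

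**Figure D3:**
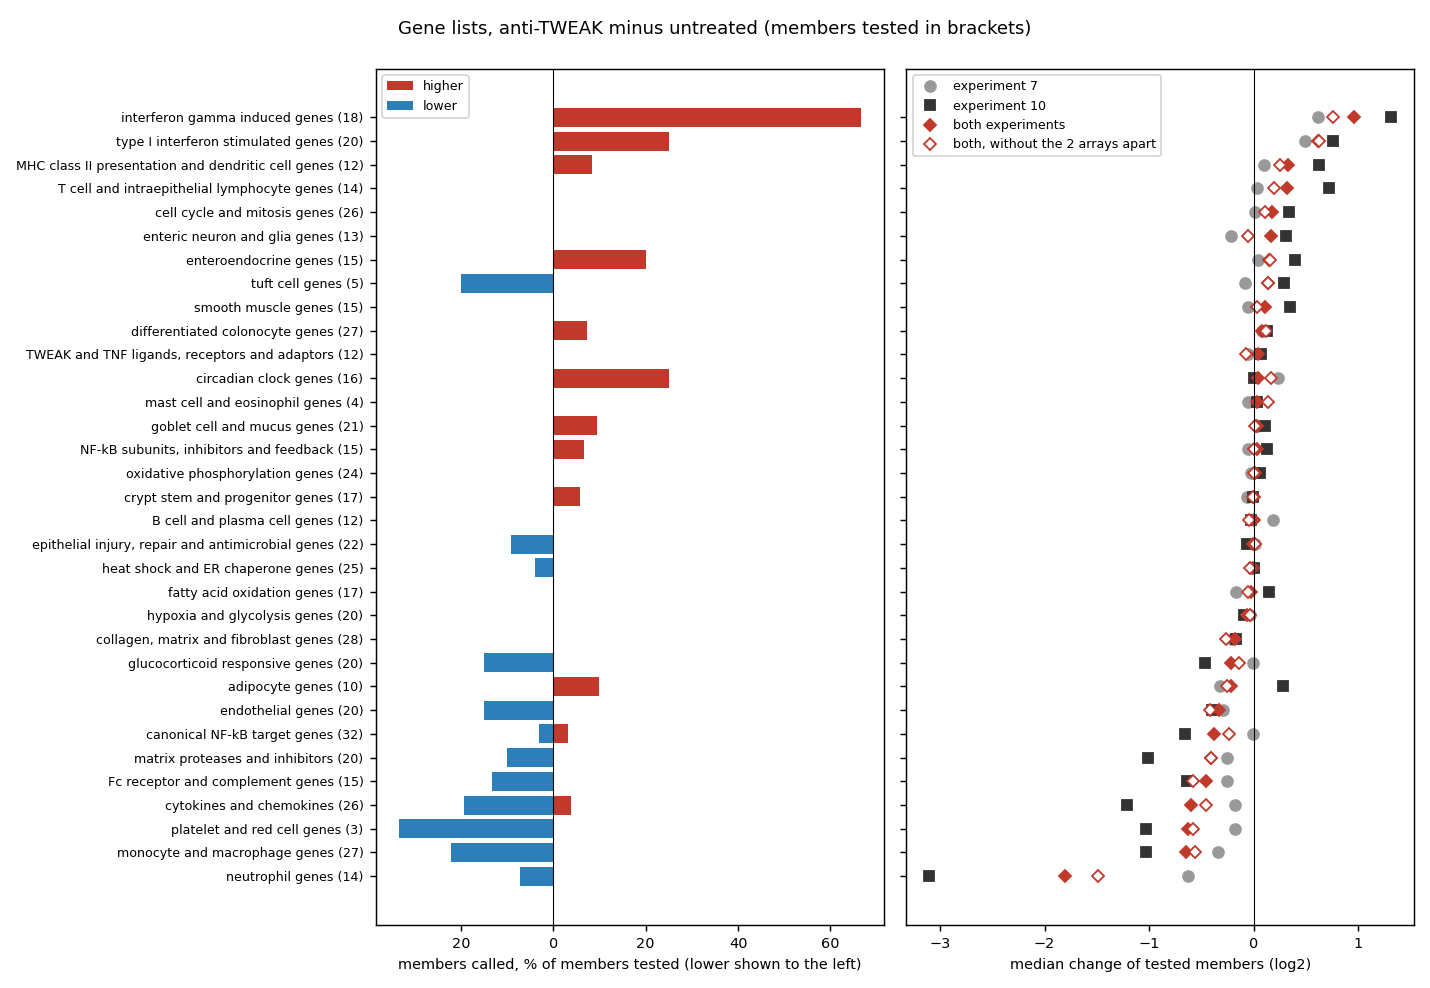
Gene lists in the comparison of anti-TWEAK with untreated mice; the left panel gives the percentage of tested members called higher (right of 0) and lower (left of 0), and the right panel the median log2 change in experiment 7, in experiment 10, in both, and in both without the 2 arrays that stood apart. Interferon gamma induced genes stand at the top with 12 of 18 members higher and neutrophil genes at the bottom with a median of -1.80 and 1 of 14 called.

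Over all genes tested 2.28% were called lower. Of 20 endothelial genes 3 fell and 0 rose (median -0.33), Vcam1, Esam, a junction protein (-0.51 ± 0.15), and Eng, a coreceptor of TGF-beta (-0.40 ± 0.11). Of 20 matrix proteases and inhibitors 2 fell, Mmp19 (-0.62 ± 0.18) and Mmp14 (-0.33 ± 0.10), and of 28 matrix and fibroblast genes 0 passed, with Vim and Acta2 at -0.11 ± 0.048 and 0.059 ± 0.032. Pf4, a chemokine of platelets, fell by 0.63 ± 0.15 and was 1 of 3 platelet and red cell genes tested. Of 20 glucocorticoid responsive genes 3 fell and 0 rose. Angptl4, a secreted inhibitor of lipoprotein lipase, was at 10.94, 11.36, 11.37 and 8.73 and 9.30, 10.19, 8.86 and 10.95 in untreated mice, and at 7.77 to 10.88 (median 9.01) and 7.49 to 9.45 (median 8.16) in treated mice of experiments 7 and 10. In experiment 10, 5 of 6 treated mice lay below every untreated mouse, and in experiment 7 all 8 lay below 3 of the 4 untreated mice, while untreated replicate 5 was within the treated range. Angptl4 fell by 1.53 ± 0.34 (adjusted p = 0.00412; without the 2 arrays -1.71 ± 0.37, adjusted p = 0.00421), the glucocorticoid-induced leucine zipper Tsc22d3 by 0.50 ± 0.12 and the kinase Sgk1 by 0.20 ± 0.063. Without the 2 arrays 4 endothelial, 1 protease, 1 platelet and 1 glucocorticoid responsive gene passed, all lower, as did 2 matrix genes. In that fit 2.80% of all genes were called lower.

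With 3.82% of all genes called higher, 4 of 16 circadian clock genes rose and 0 fell. Beside Nr1d1 they were Dbp, an output factor of the clock (0.95 ± 0.28, adjusted p = 0.0286), Nr1d2 (0.33 ± 0.079, adjusted p = 0.00688) and the repressor Cry2 (0.44 ± 0.13, adjusted p = 0.0267). Cry2 was at 8.42, 7.92, 8.28 and 8.73 in untreated and 8.65 to 9.47 (median 9.02) in treated mice of experiment 7, and at 8.41, 8.10, 8.77 and 8.00 and 8.21 to 8.69 (median 8.47) in experiment 10. The ranges barely met in experiment 7 and overlapped widely in experiment 10. Dbp, Nr1d2 and Cry2 passed without the 2 arrays. The labels do not give the hour of killing.

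Of 27 colonocyte genes 2 rose, where 3.82% of all genes were called higher, the mucin Muc3 (0.13 ± 0.028, adjusted p = 0.0026; without the 2 arrays 0.13 ± 0.031, adjusted p = 0.00566) and the phosphate transporter Slc20a1 (0.34 ± 0.11), and of 21 goblet cell genes 2, the mucin Muc13 (0.13 ± 0.037) and the stress sensor Ern2 (0.23 ± 0.073). Of 15 enteroendocrine genes 3 rose: Tph1, which makes serotonin (0.58 ± 0.18), and the granins Chga (0.49 ± 0.15) and Chgb (0.24 ± 0.073); 0 passed without the 2 arrays. Rnf43, a brake on Wnt signalling, rose by 0.44 ± 0.13 as 1 of 17 crypt stem and progenitor genes. Of 22 injury and repair genes, the growth factor Epgn (-0.90 ± 0.25) and Lyz1, a lysozyme (-0.23 ± 0.072), fell. Lyz2, the lysozyme of macrophages, fell as well, and which cells the Lyz1 signal came from was not tested. The leukotriene factor Alox5ap, 1 of 5 tuft cell genes and also a gene of myeloid cells, fell by 1.46 ± 0.45, Bag3, a chaperone cofactor, by 0.18 ± 0.057 as 1 of 25 chaperone genes, and Pparg rose by 0.38 ± 0.11 as 1 of 10 adipocyte genes. Without the 2 arrays Pparg and Bag3 passed, and 0 goblet, stem, repair and tuft cell genes did.

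No member was called among 14 T cell genes (median 0.32; Gzma 0.43 ± 0.43, Prf1 0.018 ± 0.041), 12 B and plasma cell genes (median 0.00; Igha 0.17 ± 0.066, Sdc1 -0.043 ± 0.029) and 26 cell cycle genes (median 0.18; Pcna 0.083 ± 0.076, Rrm2 0.053 ± 0.10). The same held for 15 smooth muscle genes (Tagln 0.043 ± 0.045), 4 of mast cells and eosinophils (Hdc -1.44 ± 0.89, Kit 0.17 ± 0.086), 24 of oxidative phosphorylation (Cox5b 0.04 ± 0.026, Cox7a2 -0.0018 ± 0.014), 20 of hypoxia and glycolysis (Aldoa -0.0087 ± 0.03, Ldha 0.01 ± 0.038), 17 of fatty acid oxidation (Hadh -0.01 ± 0.022, Slc25a20 -0.023 ± 0.052) and 13 of enteric neurons and glia (Tac1 0.0099 ± 0.10, Vip -0.10 ± 0.12). A gene that missed the threshold is not shown to be unchanged, as the standard errors of such genes as Hdc show.

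In 13 called genes the ranges of treated and untreated mice did not meet in either experiment, all chosen after their values were seen. For background, groups did not overlap in experiment 7 for 0.463% of all tested genes in the higher and 0.742% in the lower direction, and in experiment 10 for 10.7% and 2.77%. The lowest adjusted p among the named ones was that of Eif1b, a homologue of a translation initiation factor. Its untreated levels were 12.32, 12.14, 12.20 and 12.10 in experiment 7 and 12.31, 12.10, 12.15 and 12.11 in experiment 10, and treated levels ran from 11.71 to 12.02 (median 11.89) and from 11.73 to 12.04 (median 11.93). Every treated mouse was below every untreated mouse of its experiment. Eif1b fell by 0.28 ± 0.044 (adjusted p = 7.81e-05), as Dcun1d3, a cofactor of cullin neddylation, did by 0.33 ± 0.055 (adjusted p = 0.000145). Rises of this kind were those of the nucleotide sugar transporter Slc35b3 (0.20 ± 0.033), the chromatin factors Brd8 (0.34 ± 0.058) and Chd2 (0.27 ± 0.07), the vesicle proteins Sft2d3 (0.38 ± 0.075) and Rilp (0.46 ± 0.076), and Gmeb1 (0.50 ± 0.088), Zfp945 (0.38 ± 0.11), Aasdh (0.27 ± 0.056), Pyroxd1 (0.28 ± 0.068) and Tmem236 (0.28 ± 0.07), and of 1 gene known by a clone name only. All 12 named genes passed without the 2 arrays, with adjusted p between 6.97e-05 and 0.0315. Their changes lay between 0.33 lower and 0.50 higher, and 2 dimmer probe sets of Gmeb1 did not rise. A dimmer probe set of Dcun1d3 was at -0.51 in experiment 7 and 0.010 in experiment 10. The other probe sets of Brd8 rose in both, the least at 0.10 and 0.036.

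Untreated mice received no antibody, so the difference between the groups holds anti-TWEAK together with the injection of an antibody. Set against the same untreated mice, the control antibody gave 1296 called genes (10.3%), 604 higher (4.82%) and 692 lower (5.52%), or 737 without the 2 arrays (113 higher and 624 lower), and anti-TWEAK set against the control antibody gave 351 (2.80%), 143 higher (1.14%) and 208 lower (1.66%), a split that was 189 and 166 after quantile normalization. The comparisons share mice, so their values are only given side by side. For Ido1 they were 1.51 ± 0.46 (anti-TWEAK minus untreated), 1.51 ± 0.46 (control antibody minus untreated) and 0.0058 ± 0.39 (anti-TWEAK minus control antibody). For Gbp6 they were 1.31 ± 0.30, 0.95 ± 0.29 and 0.36 ± 0.25, for Tslp 1.25 ± 0.27, 0.82 ± 0.26 and 0.43 ± 0.22, and for Ptx3 -3.15 ± 0.94, -2.64 ± 0.93 and -0.51 ± 0.79. For Tnfsf11 they were -2.37 ± 0.55, -2.65 ± 0.55 and 0.28 ± 0.46, and for Ccl7 -2.06 ± 0.62, -1.31 ± 0.61 and -0.75 ± 0.52. None of the 10 largest rises and 10 largest falls passed against the control antibody. Of the 18 interferon gamma genes 14 rose with the control antibody (median 0.90) and 0 passed against it (median 0.07), and of the 27 macrophage genes 19 fell with it (median -0.82) and 0 passed against it (median 0.20). For the tested pathway genes Tnfrsf12a, Tnfrsf1a, Tnfrsf1b, Rela, Relb, Nfkb2, Nfkbia, Traf1 and Birc3, 0 passed in any of the 3 comparisons.

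Some genes did differ from the control antibody. Eif1b was at -0.14 ± 0.037 against it (adjusted p = 0.023), Chd2 at 0.25 ± 0.059 (adjusted p = 0.0133), Sft2d3 at 0.25 ± 0.063 (adjusted p = 0.0182), Zfp945 at 0.31 ± 0.093 (adjusted p = 0.0475) and Cry2 at 0.40 ± 0.11 (adjusted p = 0.0258). Eif1b, Chd2, Sft2d3 and Zfp945 were chosen after their values were seen. Thumpd2, an RNA methyltransferase homologue, rose against both, by 0.23 ± 0.068 and 0.22 ± 0.057. Its level recurred exactly at 5.21 or 5.10 on arrays of every group, and treated mice ran from 5.09 to 5.73. The size of both changes, and of its spread given below, depends on these recurring levels.

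**Figure D4:**
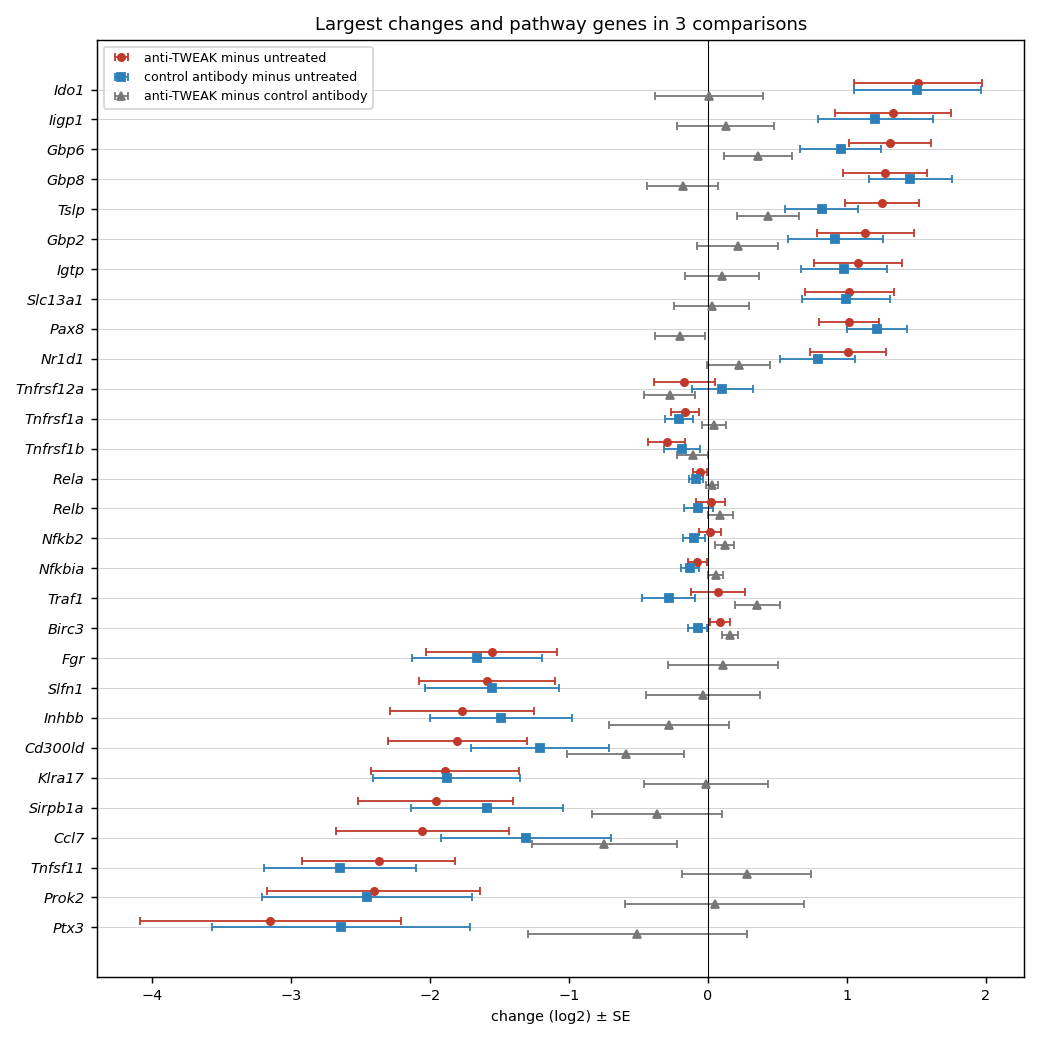
Log2 change ± SE (horizontal axis) of the 10 largest rises, 9 pathway genes and the 10 largest falls in anti-TWEAK minus untreated (circles), control antibody minus untreated (squares) and anti-TWEAK minus control antibody (triangles). For Ido1 the values are 1.51, 1.51 and 0.0058, and for Ptx3 -3.15, -2.64 and -0.51.

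The experiments were compared through the treatment effect in each. In experiment 7 (8 and 4 mice) 26 genes were called in the fit of all arrays (0.207%), 9 higher (0.0718%) and 17 lower (0.136%), and in experiment 10 (6 and 4 mice) 2726 (21.7%), 1969 higher (15.7%) and 757 lower (6.04%). Of the 765 genes called across both, 752 had the same sign in each experiment. The difference of the effect, experiment 10 minus experiment 7, was itself called for 841 genes (6.71%), 715 higher (5.70%) and 126 lower (1.01%), among them 81 of the 765; after quantile normalization the split was 308 and 106. Without the 2 arrays limma called 0 of these differences, with 1235 at an unadjusted p under 0.05. That fit keeps only untreated replicates 1 and 5 in experiment 10, which limits its precision. In experiment 10 the median change of neutrophil genes was -3.10 with the 2 arrays and -3.22 without them. For interferon gamma genes it was 1.32 and 0.84. Leaving out single arrays gave 56 to 1551 genes; without untreated replicate 2, 3 or 1 of experiment 10 there were 56, 301 and 1551, without untreated replicate 5 or 1 of experiment 7 216 and 451, and without anti-TWEAK replicate 8 of experiment 10 560.

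The largest differences were of separate kinds. Orly and Mup10 (-3.33 ± 1.02 and -2.90 ± 0.91) were below 2.5 on all 12 arrays of experiment 7 and highest on the 2 that stood apart, at 7.53 and 8.70 for Orly and at 8.24 and 8.16 for Mup10. On the other 8 arrays of experiment 10 Orly reached 5.69 and Mup10 3.48. Tubb3, a tubulin of neurons, was at 5.97, 5.74, 5.74 and 6.65 in untreated and 4.63 to 6.44 (median 5.18) in treated mice of experiment 7, and at 5.71, 4.19, 4.20 and 5.26 and 6.41 to 6.83 (median 6.49) in experiment 10. In experiment 7, 7 of 8 treated mice were below every untreated mouse and in experiment 10 all 6 were above, and the difference was 2.45 ± 0.48 (adjusted p = 0.0026). In the same direction Slc30a10, a manganese exporter, differed by 2.91 ± 0.63, the phosphodiesterase Pde1c by 2.55 ± 0.55, Tmem35a, a chaperone of acetylcholine receptors, by 2.75 ± 0.80 and Shisal1 by 2.33 ± 0.68. For each of these the groups overlapped in experiment 7, as for Tmem35a at 3.52 to 6.07 in untreated and 2.96 to 6.17 in treated mice. Erdr1 went the other way (-2.87 ± 0.89), and Nr1d1, Rnf43 and Traf1 differed by 1.85 ± 0.48, 0.77 ± 0.24 and 1.10 ± 0.36.

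Among gene lists 6 of 17 fatty acid oxidation genes, 3 of 15 enteroendocrine genes and 3 of 13 genes of enteric neurons differed in the higher direction, against 5.70% of all genes. They included Hadha (-0.29 in experiment 7 and 0.29 in experiment 10), Acadvl (-0.29 and 0.21) and Cpt1a (-0.30 and 0.15), enzymes of mitochondrial fat oxidation, the hormone genes Sst (-0.056 and 0.67), Pcsk1 and Scg2, and Uchl1, Prph and Tubb3 of neurons. Other probe sets of Cpt1a did not show this reversal. They were at 0.053 and -0.052 and at 0.023 and 0.0021 in experiments 7 and 10. Hadha, Acadvl, Cpt1a, Sst, Pcsk1, Scg2, Uchl1, Prph and the cytokine Il11 were chosen after their values were seen; Il11 was at 0.31 in experiment 7 and -1.90 in experiment 10 (difference -2.21 ± 0.56, adjusted p = 0.0146). No difference of these genes passed without the 2 arrays.

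**Figure D5:**
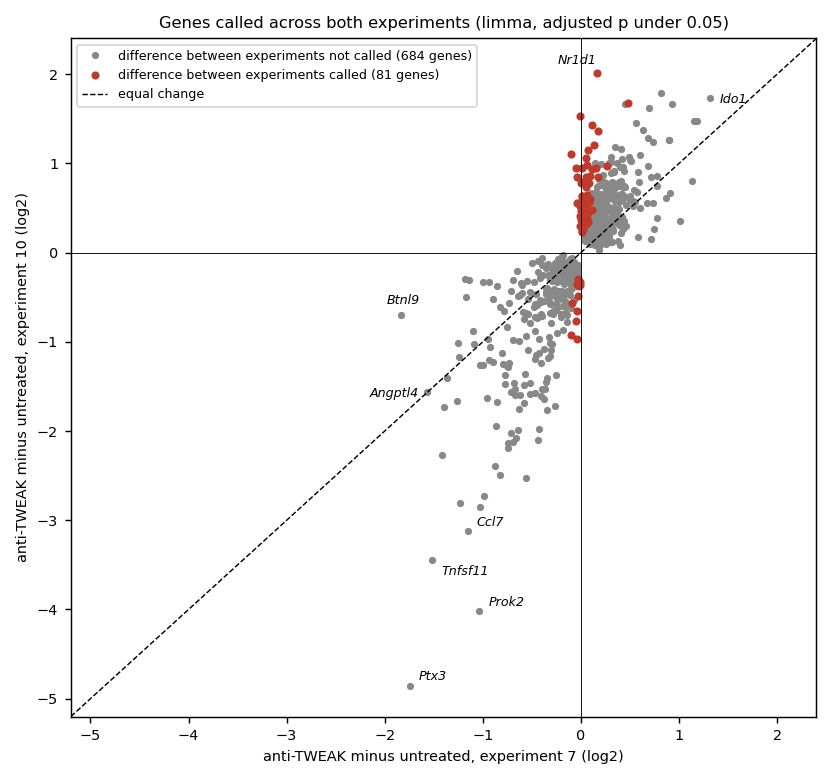
Log2 change of anti-TWEAK minus untreated in experiment 7 (horizontal axis) and experiment 10 (vertical axis) for the 765 genes called across both; each point is a gene, red where the difference between experiments was called (81 genes), and the dashed line marks equal change. Points lie mostly on the same side of 0 in both and farther from 0 in experiment 10, as for Ptx3 at -1.75 and -4.86.

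The spread between mice was tested as well, on the distance of each mouse from the mean of its group and experiment. Limma called 37 genes (0.295%), 2 with a wider spread under anti-TWEAK (0.0160%) and 35 with a narrower one (0.279%), and 1385 genes had an unadjusted p under 0.05. On simulated data the test found a narrower spread far more readily than a wider one in the larger group, so the split between directions cannot be read. Btnl9, a butyrophilin-like gene, was at 6.61, 6.57, 5.89 and 4.07 and 3.90, 5.83, 3.75 and 6.08 in untreated mice of experiments 7 and 10, and at 3.33 to 4.79 (median 3.99) and 3.77 to 4.65 (median 4.09) in treated mice. Untreated mice fell into high and low values and treated mice stayed together at the low end. Control antibody mice were low as well, at 3.52 to 4.76 (median 4.07) and 3.74 to 5.56 (median 4.10). Naive mice had a median of 3.84. Their spread was not tested. The spread of Btnl9 under anti-TWEAK was 0.79 ± 0.16 lower than in untreated mice (adjusted p = 0.0374). The lipid carrier Fabp7 (-1.09 ± 0.22), the receptor kinase Epha3 (-0.90 ± 0.12), the myeloid adaptor Pram1 (-1.01 ± 0.21) and the lysophosphatidic acid receptor Lpar4 (-0.90 ± 0.15) had narrower spreads too. Lpar4 stood at 5.39 and 5.76 on the 2 arrays that stood apart and at 2.63 to 3.94 in the other untreated mice. It ran only from 2.76 to 3.13 in treated mice, where the value 2.99 recurred exactly. In treated mice of experiment 10 Pram1 ran from 2.43 to 2.96 and Fabp7 from 2.35 to 3.85. The size of these spreads depends on such low levels. Elavl2, an RNA-binding protein of neurons, was at -1.07 ± 0.23 and at 0.0053 without the 2 arrays, on which it stood at 7.36 and 8.01. Wider spreads were those of Svs4 (2.16 ± 0.42), a seminal vesicle protein that was at 9.20, 9.22, 8.13 and 4.74 on 4 treated arrays and near the floor on the other 18, and of Thumpd2 (0.16 ± 0.035). Without the 2 arrays 68 genes were called.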

How the data were processed

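Colon RNA of 72 mice was measured on Affymetrix 3 prime arrays, and the values used are the log2 levels of the table the authors deposited. The authors' tools included limma 3.4.5 under R 2.11.1, besides GCRMA and RMA, per the submitters' processing notes; which of these made the values is not stated there, and values at the floor of 2.08 hold no order. Of 45101 probe sets 34945 named 1 gene, 932 several and 9160 none; 1 probe set per gene was kept, the one with the highest mean over all arrays, and genes whose mean was below the 40th percentile (2.42) were left out, which left 12534 of 18193. limma 3.58.1 in R 4.3.3 was fitted on all 72 arrays with treatment and experiment as terms, and with 1 mean per treatment and experiment for the effects by experiment. P-values were adjusted by Benjamini and Hochberg over all genes tested, and each method was tested on simulated data. The members and lists were chosen with earlier results of these data known. Genes are named by a rule: pathway genes, the 10 largest called rises and falls, up to 4 called members of a list (otherwise the 2 highest in level), 8 genes by difference between experiments and 6 by spread in each direction; others are marked as chosen after their values were seen. Alternatives changed the filter, probe sets, normalization, moderation, terms, groups, weights, covariates, block and arrays. One array labelled naive in its title has treatment labels at odds with that and was kept as naive. Figures were drawn with matplotlib 3.10.9 in Python 3.11.15.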

Additional observations from a re-analysis of the deposited data

Results flagged for a closer look

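In the groups of 4 to 8 mice of one treatment and experiment, 41 of 638 groups over the 160 named genes held 1 mouse whose log2 level was far from all others of its group by Dixon's test, 6.43% of groups, where chance gives about 1 in 20. Values within the floor's neighbourhood can be named by this test at differences without size, as for Mup10 at 2.08. Untreated replicate 5 of experiment 7 lay above for Cyld (12.45), Ddx58 (7.95), Hadh (14.71) and Tslp (5.35) and below for Angptl4 (8.73) and Brd8 (11.27). Untreated replicate 1 of experiment 10 lay above for Cox7a2 (15.03), Irf8 (10.68) and Muc13 (14.38) and below for Nfkb2 (7.13) and Thumpd2 (5.08). Anti-TWEAK replicate 6 of experiment 10 lay above for Adgre1 (10.57), Itgam (3.75) and Pram1 (2.96) and below for Shisal1 (5.29). Anti-TWEAK replicate 5 of experiment 7 lay above for Gmeb1 (8.66) and below for Lpar4 (2.76), Myh1 (4.51) and Mylpf (6.09). Untreated replicate 3 of experiment 10 lay below for Fgr (5.35), Sdc1 (13.89), Slfn1 (3.08) and Tnfrsf12a (7.91). Untreated replicate 1 of experiment 7 lay above for Epgn (3.59), Orly (2.41) and Svs4 (2.11) and below for Thumpd2 (5.06). Anti-TWEAK replicate 1 of experiment 10 lay above for Mup10 (3.48), Svs4 (4.74) and Tubb3 (6.83). Untreated replicate 2 of experiment 10 lay below for Pax8 (2.41) and Prph (4.17). Untreated replicate 3 of experiment 7 lay above for Mup10 (2.08) and below for Tmem236 (12.99). Anti-TWEAK replicate 2 of experiment 10 lay above for Cyld (12.53). Anti-TWEAK replicate 7 of experiment 10 lay above for Lpar4 (3.13). Anti-TWEAK replicate 8 of experiment 10 lay below for Snai1 (2.61). Anti-TWEAK replicate 2 of experiment 7 lay below for Erdr1 (8.72). Anti-TWEAK replicate 3 of experiment 7 lay above for Ern2 (10.80). Anti-TWEAK replicate 7 of experiment 7 lay above for Tph1 (9.86). Anti-TWEAK replicate 8 of experiment 7 lay below for Orly (2.15).

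The effect of anti-TWEAK differed between experiment 10 and experiment 7 by the test of the difference itself for 841 genes, among them named genes that differed in the higher direction, Acadvl (0.50), Cpt1a (0.44), Grp (2.10), Hadha (0.57), Nr1d1 (1.85), Pcsk1 (1.23), Pde1c (2.55), Prph (1.20), Rnf43 (0.77), Scg2 (0.83), Shisal1 (2.33), Slc30a10 (2.91), Sst (0.72), Tmem35a (2.75), Traf1 (1.10), Traf2 (1.01), Tubb3 (2.45) and Uchl1 (1.38). Those that differed in the lower direction were Erdr1 (-2.87), Il11 (-2.21), Mup10 (-2.90) and Orly (-3.33). All these differences missed the threshold without the 2 arrays that stood apart, a fit that keeps only untreated replicates 1 and 5 in experiment 10.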

How the results depend on the processing

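All 765 genes kept their direction without the 2 arrays that stood apart; among changes of single named genes that passed in either setting 2 turned direction, with experiment 10 alone, Acadvl (0.21) and Hadha (0.29), as did the spread of Elavl2 (0.0053) without the 2 arrays. A further 96 changes of sign, over all alternatives, were of values that passed neither way. Counts of called genes for anti-TWEAK against untreated, control antibody against untreated and anti-TWEAK against control antibody were 1153, 2065 and 754 over every probe set, 1898, 1947 and 903 with array weights, and 3723, 2237 and 1873 with experiment 10 alone. With experiment 7 alone limma called 0, 6 and 0, and 1082, 1373 and 1074 genes had an unadjusted p under 0.05. Without the experiment term anti-TWEAK against untreated and against control antibody gave 506 and 203, with only the groups compared the first and second were 235 and 711, and without the 2 arrays the second was 737. After quantile normalization 13 interferon gamma genes rose and 6 macrophage genes fell, and 7 chaperone genes were lower against the control antibody. The difference between experiments gave 1386 over every probe set, 414 after quantile normalization, 199 with only the groups compared, 1446 with array weights, 554 with the Actb covariate and 0 without the 2 arrays. Spread calls were 95 without a filter, 98 over every probe set, 128 with trend and robust moderation, 15 from the median and 68 without the 2 arrays. The cause of these shifts was not tested, apart from the number of arrays or probe sets each setting leaves.

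Leaving out 1 array each gave 322 to 1584 genes for anti-TWEAK against untreated and 56 to 1551 for the difference between experiments. For control antibody against untreated it gave 613 to 2139 (613, 616, 726 and 2139 without untreated replicates 2 and 5 of experiment 10 and 2 and 5 of experiment 7), for anti-TWEAK against control antibody 189 to 477 (189, 214 and 208 without control replicates 4, 5 and 7 and 214 and 221 without anti-TWEAK replicates 6 and 7 of experiment 10), and for the spread 26 to 77 (57 and 77 without untreated replicates 2 and 1 of experiment 7).

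With the replicate number as a block the counts were 303, 824 and 215 for the 3 comparisons. For same-numbered mice the correlation of their deviations ran from -0.17 to 0.07 over 7 pairs, with 0 pairs over 0.1. Pairs of unlike number ran from -0.63 to 0.76. With so wide a range, these values cannot tell whether same-numbered mice shared more than a number.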

Other observations

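Set against the control antibody, 8 of 25 tested chaperone genes were lower with anti-TWEAK and 0 higher (median -0.14), where 2.80% of all genes were called. Set against untreated mice, 6 of the 25 were higher with the control antibody and 0 lower (median 0.17), and with anti-TWEAK 0 were higher and 1 lower. Hspa1a and Hspa1b, the inducible Hsp70 genes, were at -0.94 ± 0.21 and -0.63 ± 0.11 against the control antibody (adjusted p = 0.00805 and 0.000509), and the constitutive Hspa8 and the cofactor Bag3 were at -0.091 ± 0.022 and -0.19 ± 0.048 (adjusted p = 0.0167 and 0.0167). Against untreated mice the changes were -0.73 ± 0.25, -0.36 ± 0.13, -0.026 ± 0.027 and -0.18 ± 0.057, of which only that of Bag3 passed (without the 2 arrays also that of Hspa1a, adjusted p = 0.0388), and with the control antibody against untreated mice they were 0.21 ± 0.25, 0.27 ± 0.13, 0.065 ± 0.026 and 0.011 ± 0.056, and 0 of these 4 passed. Hspa1a, Hspa1b and Hspa8 were chosen after their values were seen, and the comparisons share mice.

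Genes of tissues outside the colon wall varied from mouse to mouse within groups. Of 10 exocrine pancreas genes 0 were called, with Ctrb1, a digestive protease chosen after its values were seen, at -2.53 ± 1.96. Of 13 skeletal muscle genes 0 were called (Mylpf -0.29 ± 0.74, Myh1 -0.68 ± 0.88), and of 14 genes of keratinised epithelium 0 (Krt10 -0.43 ± 0.57, Krtdap -0.73 ± 0.98). The pancreas genes with the highest mean level, Cela1 and Clps, were at 0.061 ± 0.17 and 0.13 ± 0.43. Lcn2, an antimicrobial protein of inflamed epithelium and neutrophils, was at -1.42 ± 0.75. Grp, a neuropeptide, and Traf2, an adaptor of TNF receptors, differed between experiments by 2.10 ± 0.57 and 1.01 ± 0.25; Lcn2, Grp and Traf2 were chosen after their values were seen.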
